A study of Mus musculus with 4 samples.

Results

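The library of C2C12 cells taken 168 h after the switch to low serum was set against the library taken at 60 h, to see which genes went on changing in cells that had already left growth medium. All genes that could be named from the assembled transcripts of either library were members, 12633 genes out of 12851 named in the 4 libraries of the series. Of these, 11709 were assembled in both libraries, and 11230 had both gene values described below in both libraries and could be compared. C2C12 is an established mouse skeletal myoblast line, labelled with the strain C57BL/6. Cells grew in medium with 20% fetal bovine serum, were moved to low serum once confluent, and gave polyadenylated RNA that was sequenced from both ends of each fragment. The series holds 1 library at each of 4 times, -24 h in exponential growth and 60, 120 and 168 h after the switch, all from the same line with no added agent named in the labels. With no replicates, a difference compares a pair of libraries, has no check against the spread between cultures and carries no p-value. In RNA from a whole culture, fewer cells of a type and less RNA per cell cannot be told apart.

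When serum is withdrawn, confluent myoblasts leave the cell cycle, switch on myogenin and fuse into multinucleated myotubes. The new fibres first build sarcomeres from embryonic and cardiac isoforms and then add Z-disc and M-band proteins, calcium-release machinery, acetylcholine receptors and the enzymes of muscle energy supply. Some cells of such cultures stay mononucleated and do not fuse, so a culture of this kind is a mixture of myotubes and unfused cells.

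Levels are in FPKM, a count of fragments divided by transcript length and library size, and ± gives how far the confidence limit lies from the value. This margin reflects counting and, in genes with several transcripts, the division of fragments between them, and it covers no variation between cultures. The words rose and fell are kept for genes that passed a size rule by 2 measures. The FPKM summed over a gene's transcripts had to differ 2-fold or more on the log2(FPKM + 1) scale, reach 1 FPKM in the library with more of it and have intervals apart, and the FPKM through its introns had to differ 2-fold or more in the same direction. Each log2 ratio below is log2 of FPKM + 1 at 168 h over FPKM + 1 at 60 h, which understates the change of low genes. Levels are per length, but those of different genes can be compared only where the 2 measures lie close together. Actc1 had 1758 FPKM at 60 h whichever measure was taken. Myh8 had 945 FPKM at 60 h as a sum over its transcripts, against 126.1 as its intron value. The 60 h and 168 h libraries were the deepest, with 48228886 and 43845262 fragments, against 28513976 in growth and 24488681 at 120 h. The median distance to the limit was 9.29% of a gene's value at 60 h, 13.3% at 120 h and 10.2% at 168 h. The median log2 ratio over all 11230 genes was 0.06 by the sum and -0.02 through the introns.

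The culture carried the markers of skeletal muscle at both times. All 10 skeletal markers, among them the muscle actin Acta1, the creatine kinase Ckm and the ryanodine receptor Ryr1, were assembled in both libraries, and their summed FPKM was 10245 at 60 h, 14776 at 120 h and 14345 at 168 h. None of the 10 rose or fell. Of 10 smooth-muscle markers, 5 fell, against 3.25% of all compared genes, and their list summed to 3364, 3012 and 2840 FPKM at 60, 120 and 168 h. That list shares Des with the skeletal list. Des, whose levels are given below, was higher at 168 h than at 60 h and made most of the sum at 168 h. The other members together were thus lower at 168 h by more than these sums show. The master coactivator of the smooth-muscle lineage, Myocd, was assembled in neither library. Of 10 fibroblast markers, 2 rose (Col3a1 and Dcn), against 3.54% of all compared genes. The fibroblast list summed to 589.6 at 60 h, 969 at 120 h and 1419 at 168 h. Col3a1 alone made 427 FPKM of it at 60 h and 1182 at 168 h, while Thy1 and Tcf21 were assembled in neither library. Adipocyte markers summed to 10.8 at 60 h, 33.6 at 120 h and 52.4 at 168 h, of which Lpl made 42.5 FPKM at 168 h, and Adipoq, Plin1, Cebpa, Cidec, Lep and Cfd were assembled in neither. Macrophage markers summed to 16 at 60 h, 11.5 at 120 h and 12.7 at 168 h, with Adgre1, Ptprc, Lyz2, Mrc1, Tyrobp and Aif1 assembled in neither library. Endothelial markers summed to 9.74 at 60 h, 20.8 at 120 h and 10.6 at 168 h, with Pecam1, Kdr and 5 others assembled in neither. Osteoblast and chondrocyte markers stood higher, at 317, 407 and 235 FPKM in turn, with Bglap, Ibsp, Alpl, Col2a1 and Acan assembled in neither. Cardiac markers summed to 67.7, 82.2 and 69 FPKM, and neuron and Schwann cell markers to 54.4, 29.8 and 9.32 FPKM.

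Between 60 h and 168 h, 397 genes rose (3.54% of those compared) and 365 fell (3.25%), which is 6.79% in either direction. Of these genes, 386 of the risen and 355 of the fallen were protein-coding. The median log2 ratio was 1.39 among the risen and -1.34 among the fallen, and the median level in the higher library was 23.5 and 20.7 FPKM. Only 51 risen and 52 fallen genes were past 4-fold by the sum of their transcripts. The genes that fell included many of mitosis and DNA replication and some of stress fibres and sterol synthesis. Those that rose included genes of muscle energy supply, the Z-disc, the extracellular matrix and protein breakdown. By the sum alone 858 genes would have risen (7.64%) and 568 fallen (5.06%). The count of risen genes above that of fallen genes depended on scaling, since scaling to the median ratio gave 338 risen and 436 fallen, and scaling to equal totals 329 and 449.

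**Figure D1:**
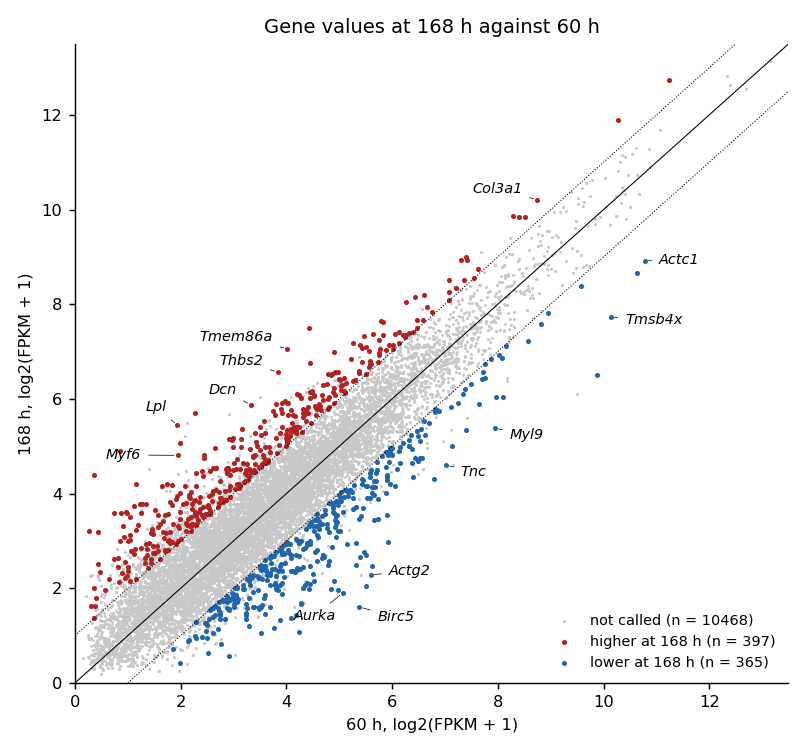
Each point is 1 of the 11230 genes compared, with its level at 60 h on the x axis and at 168 h on the y axis, both as log2(FPKM + 1). Red points are the 397 genes that rose and blue points the 365 that fell, the solid line marks equal levels and the dotted lines 2-fold. Lpl, Dcn and Thbs2 lie above the upper dotted line, and Birc5, Aurka and Actg2 below the lower one.

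Described list by list, the medians ran from a log2 ratio of -1.08 for the cell cycle to 0.71 for muscle energy metabolism. After the cell cycle, the lowest medians were those of cholesterol and fatty acid synthesis (-0.84), splicing regulators (-0.61) and serum, immediate early and stress-fibre genes (-0.59). After energy metabolism, the highest were those of proteolysis, autophagy and lysosome (0.59), giant, Z-disc and M-band proteins (0.58), cytoplasmic ribosomal proteins (0.53) and interferon, chemokine and complement genes (0.52). The median over all genes, 0.06, lies between these groups.

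**Figure D2:**
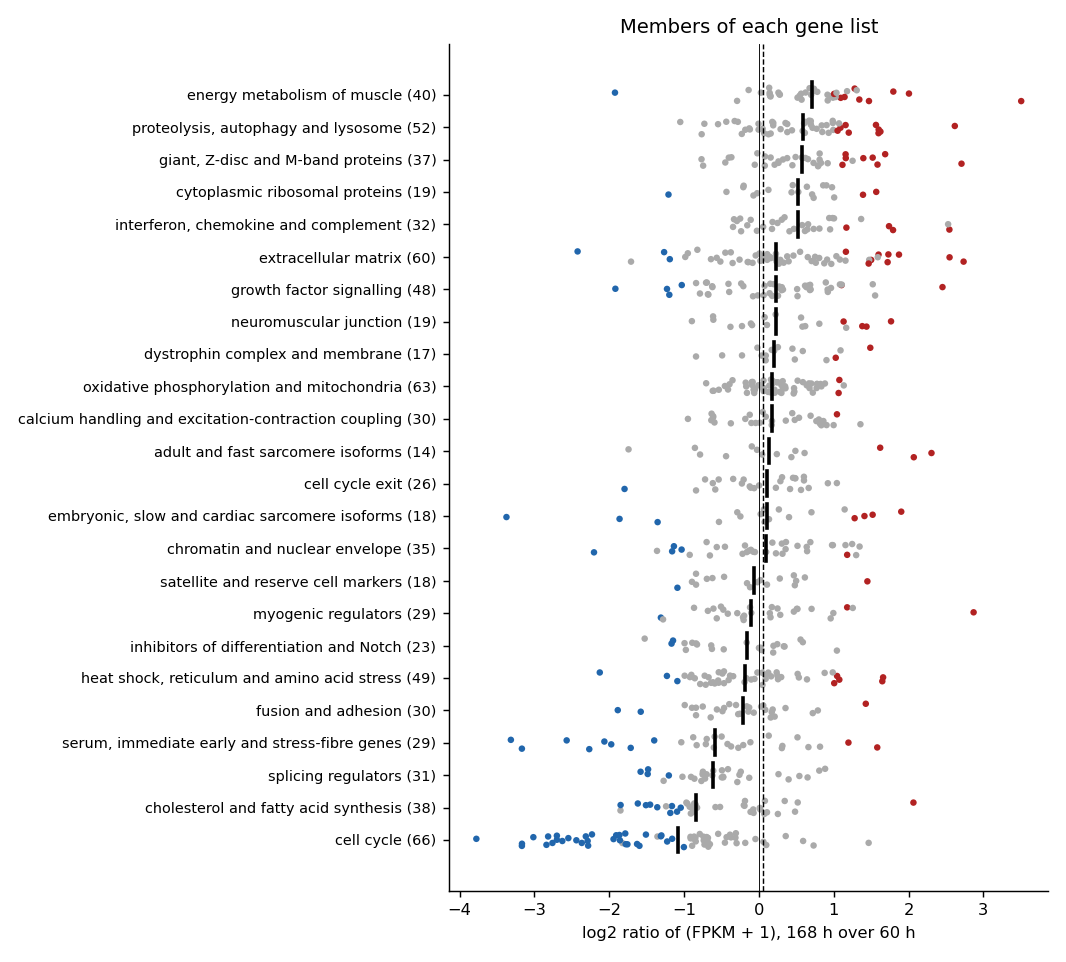
Each point is a compared member of the list named at the left, with the number of compared members in brackets, and the x axis is its log2 ratio of FPKM + 1 at 168 h over 60 h. Red points rose, blue points fell, grey points did not pass the rule, black bars are list medians and the dashed line is the median of all genes at 0.06. Nearly the whole cell cycle list lies left of 0, with 32 blue points among 66, and nearly the whole energy list lies right of it.

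The library at 120 h was used only to see where the middle value lay. Of the 397 risen genes 385 were assembled at 120 h, and in 310 of them (80.5%) the 120 h value lay between the other two. Of 357 fallen genes with a 120 h value, 309 (86.6%) lay between. The same share was 39.8% among the 10208 genes that neither rose nor fell, and 42.8% over all genes. A gene with a large difference between its end points is more often crossed by a middle value, so these shares describe the trajectories and are no test. By 120 h the risen genes had covered a median of 56.9% of their log2 change, and 222 of 385 had covered over 50%. The fallen genes had covered a median of 40.5%, and 124 of 357 over 50%. These positions use the deposited values without scaling, and summed FPKM was 526709 at 60 h, 603759 at 120 h and 557123 at 168 h. A larger total at 120 h raises the part covered in risen genes and lowers it in fallen genes. Whether the difference between the medians holds after scaling was not tested. Among the risen genes outside the range, 64 lay beyond the 168 h value and 11 beyond the 60 h value, and among the fallen genes 10 and 38.

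**Figure D3:**
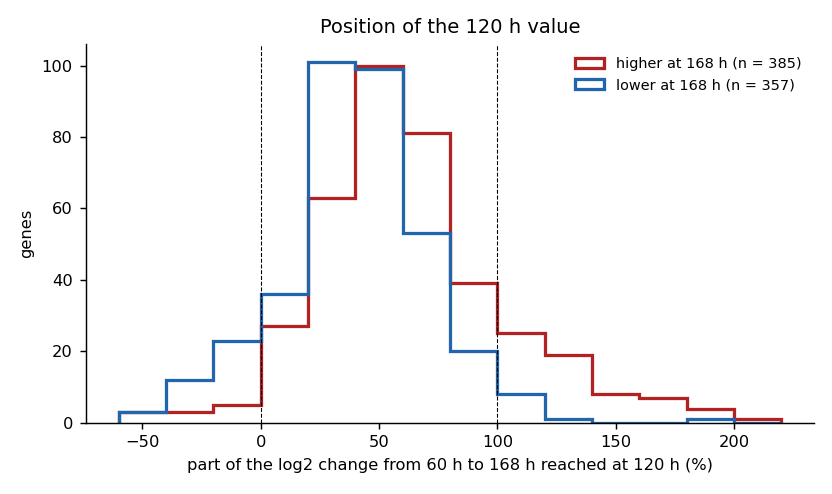
The x axis is the part of a gene's log2 change from 60 h to 168 h that was reached at 120 h, in percent, and the y axis is the number of genes. The red line is the 385 risen genes, the blue line the 357 fallen genes, the dashed lines mark the 60 h value (0) and the 168 h value (100), and the end bins hold the genes beyond them. With the 120 h values as deposited and not scaled, the blue line lies further left than the red one, with medians of 40.5% and 56.9%.

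The cell cycle list had the largest share of fallen members among the 24 lists. Of its 66 compared members 32 fell and none rose, against 3.25% fallen over all genes, and 60 had a log2 ratio below 0. The median log2 ratio was -1.08 by the sum and -1.65 through the introns. Counting fragments over the union of exons, 54 members fell and none rose, against 732 fallen and 398 risen among all 11230 genes by that measure. Birc5, which encodes the chromosomal passenger protein survivin, was at 40.6 ± 2.36 FPKM at 60 h, 20.1 ± 2.34 at 120 h and 2.04 ± 0.389 at 168 h, a log2 ratio of -3.78, after 163 FPKM in growth. Aurka, the spindle-pole kinase, was at 32.5 ± 3.04 FPKM at 60 h, 14 ± 1.13 at 120 h and 2.73 ± 0.421 at 168 h, a log2 ratio of -3.17. Cdca8, survivin's partner in the passenger complex, was at 30.5 ± 1.26 FPKM at 60 h, 13.8 ± 1.21 at 120 h and 2.9 ± 0.409 at 168 h. In each of these mitotic genes the 3 values do not overlap within their limits. Cyclin B2, Ccnb2, was at 39, 23 and 4.59 FPKM. Its kinase Cdk1 was at 38.7, 20 and 6.7 FPKM. Top2a, the topoisomerase that untangles replicated chromosomes, was at 44.5, 5.16 and 5.46 FPKM by the sum. Through the introns it was at 19.1, 5.16 and 1.33 FPKM, so its course after 120 h depends on the measure. Anln, a cytokinesis scaffold that binds actin, was at 17.8, 15.8 and 1.1 FPKM by the sum. Through the introns its 120 h value was lower, at 8.6 FPKM, with 17.8 at 60 h and 1.1 at 168 h. Genes of the replication fork fell too. Mcm3, a subunit of the helicase, was at 18.5, 10.6 and 2.15 FPKM and Mcm5 at 23.1, 16.5 and 7.46 FPKM, with log2 ratios of -2.63 and -1.51. Among the mitotic genes outside the list, Pimreg was at 44.6, 17.5 and 3.1 FPKM, the spindle protein Tacc3 at 27.7, 18.3 and 2.95 FPKM, securin (Pttg1) at 59.4, 31.3 and 6.84 FPKM and the ubiquitin-conjugating enzyme Ube2c at 40.9, 22.1 and 5.29 FPKM. Plk1, a mitotic kinase with 6% of its 50-base words also in other genes, was at 29, 12.8 and 3.42 FPKM. The members that stayed near their 60 h level included Cdk4 (84.4, 80.7 and 68 FPKM) and E2f1 (8.81, 10.2 and 9.22 FPKM). The sum of Gins2 was higher at 168 h (7.76, 6.73 and 23.2 FPKM), but it did not pass through the introns, and its log2 ratio was -1.63 over the union of exons.

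Among the inhibitors that hold cells out of the cycle the share called was near that over all genes. Of 26 compared members of the cell cycle exit list 1 fell and none rose, against 3.25% and 3.54% over all genes, with a median log2 ratio of 0.11. Cdkn1a, the p21 inhibitor and the most abundant of them, was at 1354 ± 10.3 FPKM at 60 h, 1751 ± 19 at 120 h and 1295 ± 7.24 at 168 h. Ccnd3, the cyclin that stays on in myotubes, was at 147, 262 and 201 FPKM. The member that fell was Cdkn1c, the p57 inhibitor, at 13.6, 9.01 and 3.22 FPKM. In the chromatin and nuclear envelope list 4 of 35 fell and 1 rose, with a median log2 ratio of 0.10 by the sum and -0.15 through the introns. The fallen members were the B-type lamins Lmnb1 (21.6, 12.6 and 3.91 FPKM) and Lmnb2 (35.5, 23 and 15.6 FPKM), the lamin B receptor Lbr (12, 7.56 and 5.36 FPKM) and the histone methyltransferase Suv39h1 (12, 6.43 and 4.82 FPKM). The member that rose was Mef2d, described below, and the A-type lamin gene Lmna was at 433, 352 and 463 FPKM.

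The promoters of the fallen cell cycle genes are shown because many hold the pentamer CCAAT, the core letters bound by the factor NF-Y. RefSeq promoters (GRCm38.p6) could be matched by symbol for 8860 of the compared genes, and the 250 bases before each start were searched on both strands. CCAAT occurred in 24 of 26 fallen cell cycle genes (92.3%), in 42 of all 55 compared cell cycle genes (76.4%), in 142 of 278 fallen genes (51.1%), in 106 of 298 risen genes (35.6%) and in 3268 of 8860 compared genes (36.9%). It occurred in 34.5% of all 27025 promoters of the table. Among fallen genes outside the cell cycle list the share was 118 of 252 (46.8%). TTTGAA, the letters at the centre of the cell cycle homology region, occurred in 8 of the 26 (30.8%), in 13 of the 55 compared cell cycle genes (23.6%), in 17.6% of fallen and 10.4% of risen genes, in 10% of compared genes and in 16.3% of all promoters of the table. A match is a description of these letters and not a bound site. The 150 bases before the start of 3 of these genes follow, with CCAAT, its reverse complement ATTGG and TTTGAA in capitals. Aurka lies on the minus strand at chr2:172370571-172370720, Ccnb2 on the minus strand at chr9:70421555-70421704 and Cdk1 on the minus strand at chr10:69352913-69353062, in GRCm38.p6.
Aurka: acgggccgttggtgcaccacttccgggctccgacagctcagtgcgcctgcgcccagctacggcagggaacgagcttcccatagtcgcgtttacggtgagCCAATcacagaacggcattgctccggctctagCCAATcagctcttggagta
Ccnb2: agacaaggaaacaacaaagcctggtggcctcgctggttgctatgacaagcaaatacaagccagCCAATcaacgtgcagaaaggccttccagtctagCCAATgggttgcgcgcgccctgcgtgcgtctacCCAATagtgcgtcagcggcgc
Cdk1: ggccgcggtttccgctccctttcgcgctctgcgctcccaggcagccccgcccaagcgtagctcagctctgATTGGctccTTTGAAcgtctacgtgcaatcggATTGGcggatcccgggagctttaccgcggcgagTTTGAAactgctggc
The printed windows hold CCAAT or its complement 2 times in Aurka, 3 times in Ccnb2 and 2 times in Cdk1, where TTTGAA occurs 2 times as well. The promoter of Birc5, the gene with the largest fall, holds none in its 150 bases.

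Several enzymes of sterol synthesis fell. In the cholesterol and fatty acid list 9 of 38 compared members fell and 1 rose, against 3.25% and 3.54% over all genes, and the median log2 ratio was -0.84. Most of the fallen members sat along the route from mevalonate to cholesterol. Pmvk, a kinase early on that route, was at 45 ± 1.8 FPKM at 60 h, 32.6 ± 2.15 at 120 h and 17 ± 1.15 at 168 h, a log2 ratio of -1.36. Sqle and Lss, of which Lss closes the sterol ring system, were at 62.6, 55.5 and 27 FPKM and at 20.8, 15.3 and 6.95 FPKM. Cyp51, Msmo1 and Nsdhl, which remove methyl groups from lanosterol, were at 58.6, 32.9 and 18.4 FPKM, at 52.3, 24.3 and 13.8 FPKM and at 58.6, 51.2 and 19.9 FPKM. Msmo1 had the lowest log2 ratio of the fallen members, -1.85. The desaturase Fads2 was at 111, 91.4 and 51.6 FPKM and Acsl3, an acyl-CoA synthetase, at 69.7, 49.6 and 30.6 FPKM. By the union of exons 14 members fell, against 732 of all 11230 genes by that measure. The genes of fatty acid synthesis did not pass: Fasn was at 99.5, 112 and 143 FPKM, Acaca at 36.3, 53.2 and 39.2 FPKM and Scd1 at 278, 266 and 257 FPKM. Acaca has 51.5% of its words in other genes. Abcg1, which exports cholesterol, rose from 1.24 to 8.35 FPKM, with 5.48 at 120 h. CCAAT occurred before the start of 6 of 7 fallen members with a promoter (85.7%) and of 20 of 26 compared members (76.9%). The 150 bases before the start of Msmo1, on the minus strand at chr8:64733579-64733728 in GRCm38.p6, hold it 2 times, in capitals here, and are shown as an example.
Msmo1: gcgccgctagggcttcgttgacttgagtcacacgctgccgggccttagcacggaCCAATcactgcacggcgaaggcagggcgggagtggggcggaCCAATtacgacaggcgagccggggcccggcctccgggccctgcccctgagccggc

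Contractile genes of stress fibres and smooth muscle were among the members that fell in the serum, immediate early and stress-fibre list. Of its 29 compared members 8 fell and 2 rose, against 3.25% and 3.54% over all genes, with a median log2 ratio of -0.59. Acta2, the smooth-muscle actin that myoblasts and early myotubes also use, was at 1592 ± 8.11 FPKM at 60 h, 803 ± 8.8 at 120 h and 405 ± 4.5 at 168 h, a log2 ratio of -1.97. Myl9, a light chain of non-sarcomeric myosin, was at 246 ± 4.23 FPKM at 60 h, 132 ± 4.33 at 120 h and 40.7 ± 2.92 at 168 h, a log2 ratio of -2.57. Actg2, the enteric smooth-muscle actin, was at 47.3, 14.4 and 3.85 FPKM after 251 FPKM in growth. The actin-binding proteins transgelin and transgelin 2, Tagln and Tagln2, were at 52.2, 24.6 and 10 FPKM and at 275, 123 and 64.8 FPKM. Calponin 1, Cnn1, was at 5.68, 2.02 and 1.53 FPKM. Each of these genes was lower at 120 h than at 60 h and lower again at 168 h. Outside the list, thymosin beta 4 (Tmsb4x), which sequesters actin monomers, was at 1122, 545 and 212 FPKM, and the neuronal-type tubulin Tubb3 at 48.5, 24.7 and 4.5 FPKM. The 2 members that rose were Thbs1, a matricellular protein (44.7, 113 and 136 FPKM), and Ccn1, also known as Cyr61 (34.1, 36.9 and 79.3 FPKM). The immediate early factors Fos, Egr1 and Myc did not pass, with 2.22, 2.58 and 3.0 FPKM, 35.7, 29.8 and 27.4 FPKM and 24.5, 24.3 and 18.1 FPKM in turn.

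**Figure D4:**
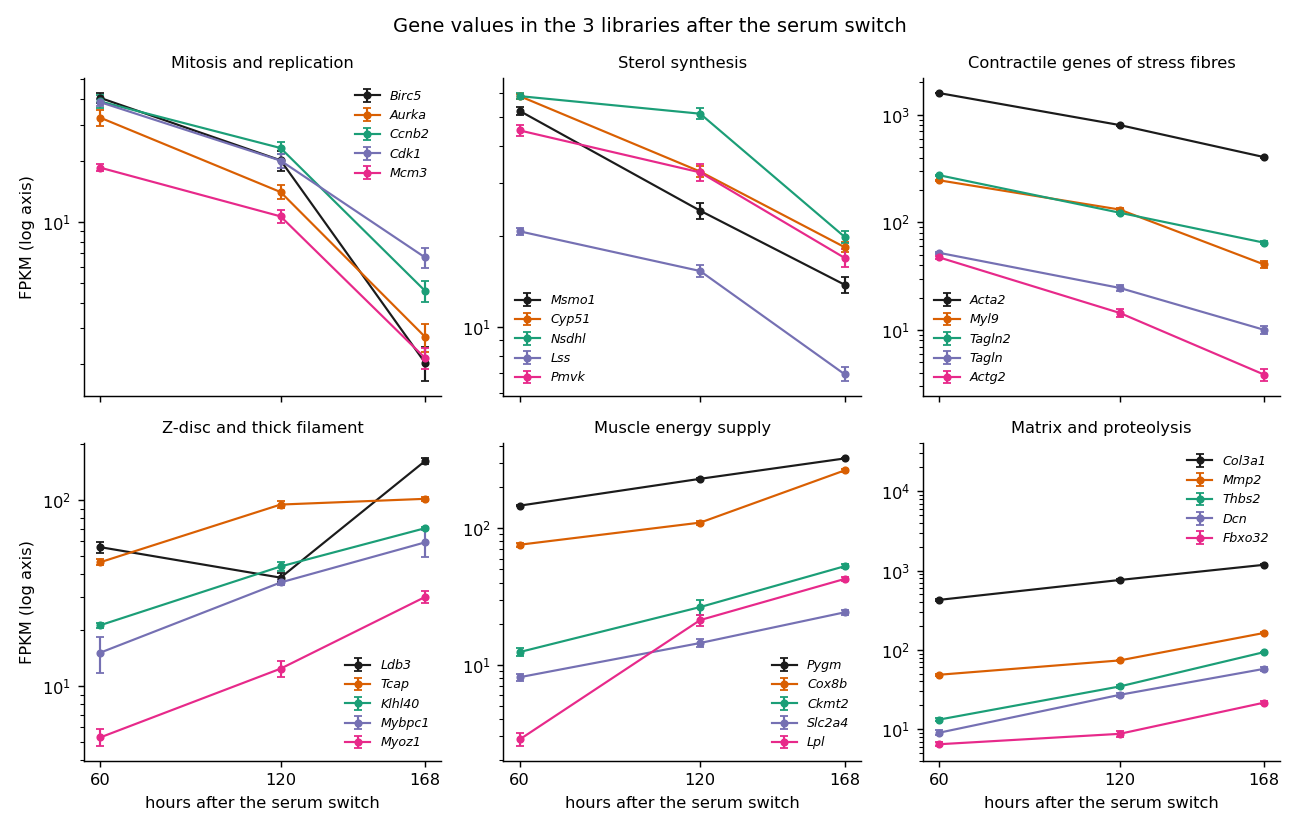
Each panel plots 5 genes of 1 group, with the hours after the serum switch on the x axis (60, 120 and 168) and FPKM on a log y axis. Points are single libraries and bars the distance to the confidence limit. In the upper panels the 15 genes fall, such as Birc5 from 40.6 to 2.04 FPKM, and in the lower panels the 15 genes rise. Values are sums over transcripts, by which Ldb3 is lower at 120 h than at 60 h, though not through the introns.

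The sarcomere genes divided within their lists. Among embryonic, slow and cardiac isoforms 4 of 18 compared members rose and 3 fell (median log2 ratio 0.11), and among adult and fast isoforms 3 of 14 rose and none fell (0.14), against 3.54% risen and 3.25% fallen over all genes. Actc1, the cardiac actin of embryonic muscle, was at 1758 ± 9.51 FPKM at 60 h, 1128 ± 10.7 at 120 h and 483 ± 5.47 at 168 h, a log2 ratio of -1.86. The adult skeletal actin Acta1 was at 5150.4 ± 16.7 FPKM at 60 h, 7931 ± 30.5 at 120 h and 7219 ± 22 at 168 h, which did not pass. The perinatal myosin heavy chain Myh8 was at 945, 282 and 90.3 FPKM, a log2 ratio of -3.37 by the sum and -1.18 over the union of exons. Myosin heavy chains share sequence, and 20% of the words of Myh8 occur in other genes. The embryonic heavy chain Myh3 (5% of words in other genes) was at 757, 801 and 522 FPKM and did not pass. Of the adult heavy chains, Myh1 (25% of words in other genes) was at 14.7, 104 and 106 FPKM and Myh2 (27%) at 20.2, 17.3 and 63.7 FPKM. Neither could be compared by both measures, since no intron value was had at 60 h, and over the union of exons both were past the rule, with log2 ratios of 2.81 and 2.02. Myh4, the fastest of them (19%), was at 289, 67.5 and 85.6 FPKM by the sum, a log2 ratio of -1.74, but its log2 ratio by the intron measure was 1.12 and by the union of exons 1.2, so its direction depends on the measure. Myl6b, a light chain, was at 379, 384 and 148 FPKM and fell by the rule but not over the union of exons. Among the genes that rose, Mybpc1, the slow myosin-binding protein C, was at 15.1, 36.1 and 59.2 FPKM, and its fast counterpart Mybpc2 at 3.23, 7.14 and 16.7 FPKM. Actn2, the Z-disc actinin, was at 99.8, 180.3 and 244 FPKM. The cardiac and slow heavy chain Myh7b was at 4.99, 14.2 and 14.9 FPKM and missed the rule under either scaling. Myl1, the fast essential light chain (23.5% of its words in other genes), was at 157, 489 and 485 FPKM, and Tpm3, the slow tropomyosin (17.5%), at 169, 435 and 487 FPKM. Both rises were lost over the union of exons, where the log2 ratios were 0.99 and 0.57. The troponins Tnnc2, Tnni1 and Tnnt1 were at 2151, 3624 and 3282 FPKM, at 1871, 3302 and 2472 FPKM and at 510.0, 660.0 and 429 FPKM, none of which passed. Tnnt2, the cardiac troponin T of embryonic muscle, was at 880.3 ± 14.7 FPKM at 60 h, 1228 ± 15.4 at 120 h and 1.08 ± 0.726 at 168 h. Tnnt2 had no intron value at 168 h and could not be compared by both measures. Its log2 ratio was -8.73 by the sum and -8.74 over the union of exons, both resting on the same transcripts. Introns that were not assembled may still have had fragments, as for Myh1 and Myh2 at 60 h, so the size of these differences is uncertain. The fast troponin T, Tnnt3, was at 153 and 143 FPKM at 60 h and 168 h (not assembled at 120 h) and did not pass.

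Among the proteins that hold the sarcomere together some rose and none fell. Of 37 compared giant, Z-disc and M-band genes 8 rose and none fell, against 3.54% risen over all genes, and the median log2 ratio was 0.58, with 30 members above 0. Myoz1, a calsarcin of fast fibres counted in the list of adult isoforms, was at 5.29 ± 0.553 FPKM at 60 h, 12.4 ± 1.27 at 120 h and 30.1 ± 2.16 at 168 h, a log2 ratio of 2.31. Myot, the Z-disc protein myotilin, was at 0.833 ± 0.299 FPKM at 60 h, 2.6 ± 0.893 at 120 h and 11 ± 1.82 at 168 h, a log2 ratio of 2.71, from a low start. Ldb3, which anchors alpha-actinin, was at 55.8, 38.3 and 162 FPKM by the sum, with its 120 h value below both ends. Through the introns it was at 23.6, 29.7 and 64.2 FPKM, with the 120 h value between the ends. Klhl40, a stabiliser of nebulin and thin filaments, was at 21.2, 43.9 and 70.5 FPKM, and telethonin (Tcap), which caps titin, at 46.3, 94.6 and 102 FPKM. Tmod4, which caps actin filaments, was at 1.54, 2.89 and 6.61 FPKM. Fhl1, a LIM-domain protein, was at 58, 54.5 and 131 FPKM and did not pass over the union of exons. Trim63, the ubiquitin ligase MuRF1 of the M-band, was at 40.6, 46.1 and 91.9 FPKM. The titin gene Ttn (28.8, 64.5 and 52 FPKM) and the desmin gene Des (1303, 1904 and 2286 FPKM) were higher at 168 h without passing. The stress-responsive ankyrin repeat genes were at the other end of the list, with Ankrd1 at 227, 221 and 133 FPKM and Ankrd2 at 60.7, 39.2 and 35.8 FPKM, neither of which passed.

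In calcium handling the share called was near that over all genes. Of 30 compared members 1 rose and none fell, against 3.54% and 3.25% over all genes, with a median log2 ratio of 0.17. Casq1, the calsequestrin of fast fibres, was at 52.3 ± 1.49 FPKM at 60 h, 99.5 ± 2.9 at 120 h and 109 ± 2.22 at 168 h, a log2 ratio of 1.04, and it no longer passed under either scaling, where Mrln (14.8, 13.8 and 7.17 FPKM), an inhibitor of the calcium pump, fell instead. Casq2, the slow and cardiac calsequestrin, was at 235 ± 2.55 FPKM at 60 h, 284 ± 4.28 at 120 h and 156 ± 2.33 at 168 h and did not pass. The calcium pump Atp2a1 was at 771, 1030.2 and 1401 FPKM and the release channel Ryr1 at 115, 176 and 201 FPKM, also short of the rule. At the neuromuscular junction 4 of 19 members rose and none fell (median 0.22), against the same shares over all genes. Chrng, the fetal gamma subunit of the acetylcholine receptor, was at 134 ± 1.68 FPKM at 60 h, 261 ± 3.94 at 120 h and 365 ± 3.61 at 168 h, and Chrne, the adult epsilon subunit that replaces it after innervation, at 3.47 ± 0.617 FPKM at 60 h, 21.1 ± 2.19 at 120 h and 14.2 ± 2.27 at 168 h. The fetal subunit therefore stood far above the adult one at every time, and both rose, although Chrng did not pass over the union of exons, with a log2 ratio of 0.81. Ache, acetylcholinesterase, was at 5.79, 7.77 and 13.9 FPKM, and Colq, its collagen tail (5.5% of words in other genes), at 2.22, 7.36 and 7.39 FPKM. The organiser kinase Musk (28.4, 23.3 and 18.3 FPKM) and its adaptor Dok7 (23.7, 18.6 and 12.3 FPKM) were lower at 168 h without passing, although Dok7 fell over the union of exons. In the dystrophin complex list 2 of 17 rose and none fell (median 0.20). Sgca, alpha-sarcoglycan, was at 83.3, 125 and 171 FPKM and did not pass under either scaling. Sgcd, delta-sarcoglycan, was at 2.95, 12 and 10.1 FPKM, but its log2 ratio was -0.14 over the union of exons, the opposite direction, and it too missed the rule under either scaling.

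Several genes of muscle energy supply rose. Of 40 compared members 9 rose and 1 fell, against 3.54% and 3.25% over all genes. A log2 ratio above 0 was found in 37 of the 40 and in 6064 of all 11230 genes, and the median of the list was 0.71. Lpl, the lipoprotein lipase that releases fatty acids for uptake, was at 2.83 ± 0.314 FPKM at 60 h, 21.2 ± 1.87 at 120 h and 42.5 ± 1.29 at 168 h, a log2 ratio of 3.5, the largest of the list. Fabp3, the muscle carrier of fatty acids (28.5% of its words in other genes), was at 1.94, 13.2 and 6.45 FPKM. Ckmt2, the mitochondrial creatine kinase of sarcomeric muscle, was at 12.4 ± 0.841 FPKM at 60 h, 26.4 ± 3.5 at 120 h and 52.7 ± 1.81 at 168 h, and Ckb, the brain-type cytosolic creatine kinase, at 249 ± 5.48 FPKM at 60 h, 162 ± 6.16 at 120 h and 64.9 ± 2.91 at 168 h. These members of 1 enzyme family moved in opposite directions, with log2 ratios of 2.01 and -1.92, and the muscle-type Ckm was at 729, 899 and 1215 FPKM without passing. Ckb has 7.5% of its words in other genes. Slc2a4, the insulin-responsive glucose transporter GLUT4, was at 8.09, 14.4 and 24.2 FPKM. Pygm, the muscle glycogen phosphorylase, was at 146, 230.4 and 325 FPKM and Pgam2, the muscle phosphoglycerate mutase, at 53.8, 195 and 132 FPKM. Pdk4, the kinase that turns off pyruvate dehydrogenase, was at 6.63, 13.1 and 14.3 FPKM, close to the 2-fold limit and short of it under either scaling, and the AMP deaminase Ampd3 at 4.59, 7.45 and 10.9 FPKM. Cox8b, a muscle subunit of cytochrome oxidase, was at 75.7, 110.0 and 265 FPKM. In the oxidative phosphorylation and mitochondria list 2 of 63 rose and none fell, a share near that over all genes, with a median log2 ratio of 0.18. The difference from the energy list was not tested. Those 2, Cox5b (33.2, 94.3 and 71.1 FPKM, 25.5% of words in other genes) and Ndufa1 (68.7, 145 and 145 FPKM), were not called over the union of exons, with log2 ratios of 0.23 and 0.62, and neither passed when totals were made equal. The coactivator Ppargc1a was at 1.43, 1.69 and 2.03 FPKM.

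Among the myogenic regulators 2 of 29 compared members rose and 1 fell (median log2 ratio -0.10), counts near the shares of 3.54% and 3.25% over all genes. Myf6, the late-acting factor MRF4, was at 2.83 ± 0.463 FPKM at 60 h, 11.8 ± 1.37 at 120 h and 27 ± 1.48 at 168 h, a log2 ratio of 2.87, and was at 0.315 FPKM in growth. Myod1, the determination factor, was at 215 ± 3.1 FPKM at 60 h, 134 ± 3.44 at 120 h and 86.1 ± 2.06 at 168 h, a log2 ratio of -1.31. Myog, myogenin, was at 399 ± 3.08 FPKM at 60 h, 489 ± 6.95 at 120 h and 326 ± 4.42 at 168 h and did not pass, although it fell over the union of exons, with a log2 ratio of -1.48. Myod1 thus remained the more abundant gene than Myf6 at 168 h, by 86.1 to 27 FPKM, after 215 to 2.83 at 60 h. Mef2d, a MADS-box partner of these factors, was at 53, 97.7 and 121 FPKM and was not called over the union of exons (0.58). Of 23 compared inhibitors of differentiation and Notch genes 2 fell and none rose (median -0.16): Hes1, a Notch target, at 14.2, 13.8 and 5.75 FPKM, and Rbpj, the DNA-binding partner of Notch, at 8.83, 6.32 and 3.43 FPKM. Rbpj has 23.5% of its words in other genes and was not called over the union of exons. In the fusion and adhesion list 2 of 30 fell and 1 rose (median -0.21). The fusion proteins myomaker (Mymk, 839.6, 1027 and 800.1 FPKM) and myomixer (Mymx, 207, 210.4 and 122 FPKM) did not pass. The adhesion receptors Cdh2, N-cadherin, and Itga6, a laminin-binding integrin (6.5% of words in other genes), fell to 11.8 and 10.5 FPKM, from 37.3 and 41.7 at 60 h, by way of 25 and 22.8 at 120 h. The nephrin relative Kirrel3 rose, at 1.76, 4.15 and 6.42 FPKM. In the list of satellite and reserve cell markers 1 of 18 rose and 1 fell (median -0.07). The satellite cell factor Pax7 was at 0.689, 1.09 and 0.556 FPKM, Myf5 at 9.41, 12.6 and 13.4 FPKM and the surface marker Cd34 at 13.9, 19.1 and 17.1 FPKM, none of which passed. The member that rose was Tenm4 (6.68, 20.2 and 20 FPKM, after 0.35 in growth). The one that fell was Megf10 (28.6, 33.1 and 12.9 FPKM, after 26.7 in growth). Whether this list follows the part of unfused cells was not tested.

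Some matrix genes rose and some fell. Of 60 compared members 9 rose and 3 fell, against 3.54% and 3.25% over all genes, with a median log2 ratio of 0.23. Thbs2, thrombospondin 2, was at 13.2 ± 0.469 FPKM at 60 h, 34.6 ± 1.07 at 120 h and 93.7 ± 1.31 at 168 h, a log2 ratio of 2.74. Dcn, the small proteoglycan decorin that binds collagen, was at 9.04 ± 0.649 FPKM at 60 h, 27.1 ± 1.57 at 120 h and 57.7 ± 3.48 at 168 h, a log2 ratio of 2.55. Col3a1, the collagen of connective tissue sheaths, was at 427 ± 9.66 FPKM at 60 h, 761 ± 15.7 at 120 h and 1182 ± 23.2 at 168 h, a log2 ratio of 1.47, which made it the most abundant of the risen members. Mmp2, a gelatinase, was at 48.6, 73.7 and 164 FPKM, and the procollagen peptidase Adamts2 at 24.8, 49.3 and 77.1 FPKM. Col6a2, a chain of the pericellular collagen VI, was at 85.3, 55.9 and 283 FPKM, with its 120 h value below the 60 h value. Col8a1, Col12a1 and Emilin1 were the other members that rose, with log2 ratios of 1.87, 1.5 and 1.16. The main fibrillar collagen of bone and tendon, Col1a1, was at 142, 154 and 165 FPKM and fibronectin (Fn1) at 785, 925 and 1080.2 FPKM, neither of which passed. Tnc, tenascin C, a matrix protein of growing and injured tissue, fell from 129 to 23.2 FPKM, with 81.4 at 120 h. Fbln5 and Cthrc1 fell as well, with log2 ratios of -1.19 and -1.27. Col3a1 and Dcn also stand in the fibroblast marker list, whose summed level moved in the same direction as given above, and the part of other cells in these changes was not tested.

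In growth factor signalling 2 of 48 rose and 4 fell, against 3.54% and 3.25% over all genes (median 0.23 by the sum, -0.01 over the union of exons). Igfbp2 was at 40.5, 12.3 and 9.98 FPKM, follistatin (Fst), an antagonist of myostatin and activin, at 51.6, 48.3 and 21.4 FPKM, the receptor Pdgfrb at 23.5, 15.6 and 9.69 FPKM and the hormone Fgf21 at 283, 262 and 138 FPKM, all of which fell. Igfbp5, the most abundant binding protein of the list, was at 534, 875 and 994 FPKM and Igf2 (76% of words in other genes) at 167, 301 and 317 FPKM, neither of which passed. Ltbp1 and Igfbp3 rose, at 2.35, 22.6 and 17.3 FPKM and at 1.7, 7.93 and 4.8 FPKM, and Ltbp1 was at 31.3 FPKM in growth, so its 60 h value was the exception. In the interferon, chemokine and complement list 4 of 32 rose and none fell, and the median was 0.52 by the sum and 0.19 through the introns. Ccl8, a monocyte chemokine, was at 1.34, 4.42 and 12.7 FPKM. Bst2, the interferon-induced protein tetherin, was at 18.4, 21.1 and 63.8 FPKM. Cxcl12 (1.74, 8.29 and 8.49 FPKM) and Ly6e (163, 239 and 367 FPKM) rose by the rule but not over the union of exons. The typical interferon targets Isg15 (6.04, 8.12 and 5.32 FPKM) and Ifit2 (1.38, 4.78 and 1.47 FPKM) did not pass, and the macrophage markers beside them were at the low levels given above.

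Some genes of protein breakdown rose. Of 52 compared members of the proteolysis, autophagy and lysosome list 9 rose and none fell, against 3.54% and 3.25% over all genes, with a median log2 ratio of 0.59. By the union of exons, 7 members rose and 1 fell, against 398 and 732 of all 11230 genes by that measure. Of the members, 5 rose by all 3 measures. Fbxo32, the muscle ubiquitin ligase atrogin-1, was at 6.47 ± 0.400 FPKM at 60 h, 8.75 ± 0.655 at 120 h and 21.6 ± 0.774 at 168 h, a log2 ratio of 1.6. Trim63, the other ligase of muscle atrophy, rose as given above. Tfeb, the regulator of lysosome genes, was at 8.25 ± 0.548 FPKM at 60 h, 9.94 ± 0.859 at 120 h and 18.2 ± 0.853 at 168 h and missed the rule under either scaling. Fbxo31, a further ubiquitin ligase subunit, was at 10.1, 12.1 and 22.7 FPKM. The autophagy genes Map1lc3a (168, 369 and 511 FPKM) and Bnip3 (0.973, 9.21 and 11.1 FPKM) and the lysosomal genes Cd63 (313, 392 and 928 FPKM) and Ctsa (60, 87.1 and 139 FPKM) rose by the rule and were not called over the union of exons. Bnip3 has 22% and Cd63 8.5% of its words in other genes. The lysosomal proteases Ctsd (576, 828 and 983 FPKM, 36.5% of words in other genes) and Ctsb (178, 332 and 333 FPKM) did not pass. The proteasome subunits of the list did not rise, and Psma1, Psmb1 and Psmd4 were at 70.6, 66 and 48 FPKM, 158, 184 and 144 FPKM and 195, 228 and 253 FPKM.

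Among stress genes the balance of calls depended on scaling. In the heat shock, reticulum and amino acid list 5 of 49 rose and 3 fell, against 3.54% and 3.25% over all genes, and the median was -0.19. Scaling to the median ratio gave 3 risen and 4 fallen members, and equal totals 2 and 5. The fallen members were Psph (139 ± 5.41 FPKM at 60 h, 96.8 ± 6.39 at 120 h and 31 ± 1.47 at 168 h) and Psat1 (259.8 ± 2.82 FPKM at 60 h, 217 ± 3.69 at 120 h and 122 ± 2.07 at 168 h), enzymes of serine synthesis, and Ddit4 (160.4, 122 and 67.8 FPKM), an inhibitor of the growth kinase mTOR. Asns (297, 206 and 156 FPKM), Shmt2 (294, 202 and 157 FPKM) and the tRNA synthetase Gars (314, 254 and 182 FPKM) were lower at 168 h without passing. The risen members were the small heat shock proteins of muscle Hspb7 (29.3, 71.2 and 94.1 FPKM) and Hspb8 (94.9, 187 and 201 FPKM), the reticulum protein Sdf2l1 (9.8, 15.7 and 33.1 FPKM), the chaperone Hspa5 (185, 205 and 373 FPKM) and the stress factor Ddit3 (87.2, 74.8 and 181 FPKM, 6% of words in other genes). The last 2 were not called over the union of exons or under either scaling, and Hspb8 was not called when totals were made equal. Of 31 compared splicing regulators 4 fell and none rose (median -0.61). The fallen members included Tra2a at 17.2, 9.19 and 5.5 FPKM, Srsf1 at 34.8, 18 and 14.5 FPKM and Hnrnph1 at 29.4 and 9.89 FPKM at 60 h and 168 h (not assembled at 120 h). The muscle splicing factors Rbfox1 (6.83, 13.4 and 13.5 FPKM) and Mbnl1 (24, 26.2 and 15.3 FPKM) did not pass. Over the union of exons 10 splicing regulators fell, against 732 of all 11230 genes by that measure. In the cytoplasmic ribosomal list 2 of 19 rose and 1 fell, but none of the 3 was called over the union of exons: Rpl23 (34% of words in other genes) reversed from 1.57 to -0.30, and Rpl7 (37.5%) and Rps19 had 0.43 and -0.49 there. These genes have many near-identical copies and their values are uncertain.

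Some of the largest ratios belonged to genes outside the lists. Aldh3a1, an aldehyde dehydrogenase, was at 2.95 ± 0.393 FPKM at 60 h, 8.53 ± 2.66 at 120 h and 32.6 ± 1.31 at 168 h, a log2 ratio of 3.09. Tmem86a, which encodes a lysoplasmalogenase, was at 15.2 ± 0.795 FPKM at 60 h, 50.5 ± 2.02 at 120 h and 133 ± 2.4 at 168 h, a log2 ratio of 3.05. Ptpn5, a tyrosine phosphatase best known from neurons, was at 1.21, 6.98 and 17.4 FPKM, and Camk2b, a calcium-calmodulin kinase, at 1.18, 5.99 and 12.3 FPKM. These 4 genes were higher at 120 h than at 60 h and higher again at 168 h. Gmps, the last enzyme of GMP synthesis, was at 17.2, 10.1 and 1.71 FPKM and fell. Selenom (20.5, 134 and 179 FPKM) and the Groucho-type corepressor Tle2 (3.84, 47 and 51.2 FPKM) rose by the rule but had log2 ratios of 0.39 and 0.44 over the union of exons. In growth Tle2 was at 50 FPKM, so its 60 h value stood below the other 3. The same held for Ube2f, at 0.281, 36.2 and 20 FPKM after 33.8 FPKM in growth, with 5.5% of its words in other genes. Rab11b (10% of words in other genes) was at 0.672, 25.1 and 11.1 FPKM after 0.853 FPKM in growth. Prl2c2 rose from 0.942 to 11.1 FPKM, but 89% of its words occur in other genes of its family and its value is uncertain.

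A further 506 genes were assembled at 60 h and not at 168 h, and 418 at 168 h and not at 60 h. No fold is given for them, since a gene that was not assembled may still have had fragments. Of these, 73 and 64 had at least 5 FPKM where they were assembled, and 42 and 47 of those were assembled at 120 h. Ccdc124 (105 FPKM) and Csnk1e (61.3 FPKM) were assembled at 60 h alone of the 2 libraries, and Csnk1e was at 68.1 FPKM at 120 h. Pcx, the pyruvate carboxylase gene, was assembled at 168 h (28.6 FPKM) and at 120 h (19.2 FPKM) and not at 60 h. The other genes with the highest values of this kind were Rplp2, Rpl6, Rpl36al and Ftl1 at 168 h and Rps15a, Rps16 and Btf3 at 60 h, which have between 6% and 78.5% of their words in other genes.

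Isoform choice was compared at splice sites that were shared by several introns, so that the level of the gene cancels. There were 4815 such sites with at least 5 FPKM in both libraries, in 2436 genes. In 512 genes (21%) the share of an intron differed by at least 30 percentage points with intervals apart, and in 379 of them an intron that changed had its 120 h share between the others. In 44 genes the change was of 100 points, because each library had only 1 of the choices assembled, so the largest changes are ties and none is singled out. Where every choice was assembled in both libraries, a restriction chosen after seeing the data, 130 genes changed. Among these changes were 48 cassette exons in 46 genes, exons that are either included between their neighbours or skipped. At 168 h 29 of them were included more and 19 less than at 60 h, 30 had a length that is a multiple of 3, and 3 of the 46 genes were called in expression, against 6.79% over all genes. Of the 47 with a value at 120 h, 27 had it between the others.

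The exons described here were chosen after their values were seen, some of them in genes of known muscle function. They are not the set with the largest changes. In Mff, the outer-membrane receptor for the mitochondrial fission enzyme, an exon of 60 bases was included in 37.3% ± 2.47 of FPKM at the site at 60 h, in 69.6% ± 6.35 at 120 h and in 90.2% ± 2.24 at 168 h. The FPKM at that site was 54.3, 44 and 35.4. In Neb, which encodes the thin-filament ruler nebulin, an exon of 105 bases went the other way, from 88.1% ± 3.22 through 77.6% ± 3.48 to 32.3% ± 5.39. In Map4, a microtubule-binding protein, an exon of 114 bases was included in 78.4% ± 4.58, 62.1% ± 5.97 and 21.2% ± 2.47. In Asph, the gene of junctin and aspartyl hydroxylase at the calcium-release site, an exon of 48 bases was included in 24.4% ± 5.26, 39.9% ± 7.62 and 67.9% ± 10.2. In Cobl, an actin nucleator, an exon of 45 bases was included in 40.3% ± 3.78, 53.8% ± 5.09 and 77.5% ± 3.13. In each of these 5 genes the exon length is a multiple of 3 and the 120 h share lay between the others, which was known when they were picked. Intervals apart at 60 h and 168 h were required of every exon by the rule. Larger changes with a 120 h share between the others occurred in Ptp4a2 (131 bases) and Max (85 bases), whose lengths are not multiples of 3. None of the 5 genes rose or fell in expression, their log2 ratios being -0.61 for Mff, 1.25 for Neb, -0.89 for Map4, -0.04 for Asph and 0.41 for Cobl. The collagen receptor Ddr1 had its change before 120 h, with an exon of 111 bases included in 59.2% ± 5.89, 21.6% ± 6.68 and 16.7% ± 3.99. The membrane-curvature adaptor Trip10 had its change after 120 h, with an exon of 168 bases included in 18.1% ± 2.51, 17% ± 4.47 and 80.7% ± 2.48.

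The 5 exons are shown because they are the sequence that the later transcripts gain or lose. Each is printed in capitals with 12 bases of the neighbouring coding exons in lower case, on the strand of the gene, from GENCODE M21 transcripts matched by exon and intron lengths. The files place them at chr1:82743658-82743717 (Mff, plus strand), chr2:52016891-52016995 (Neb, minus strand), chr9:109973530-109973643 (Map4, plus strand), chr4:9525880-9525927 (Asph, minus strand) and chr11:12273332-12273376 (Cobl, minus strand), in a build not given in the sources used here.
Mff: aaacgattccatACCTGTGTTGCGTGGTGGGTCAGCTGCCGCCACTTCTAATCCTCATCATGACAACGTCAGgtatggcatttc
Neb: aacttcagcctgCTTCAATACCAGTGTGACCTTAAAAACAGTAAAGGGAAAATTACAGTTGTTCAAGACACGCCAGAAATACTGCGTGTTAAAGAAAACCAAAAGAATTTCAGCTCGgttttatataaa
Map4: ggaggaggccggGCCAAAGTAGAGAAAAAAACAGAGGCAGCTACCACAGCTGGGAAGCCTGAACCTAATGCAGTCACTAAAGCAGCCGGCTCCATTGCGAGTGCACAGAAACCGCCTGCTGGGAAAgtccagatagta
Asph: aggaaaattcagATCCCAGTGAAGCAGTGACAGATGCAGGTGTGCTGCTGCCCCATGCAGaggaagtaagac
Cobl: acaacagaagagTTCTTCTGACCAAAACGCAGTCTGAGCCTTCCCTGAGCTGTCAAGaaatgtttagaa

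**Figure D5:**
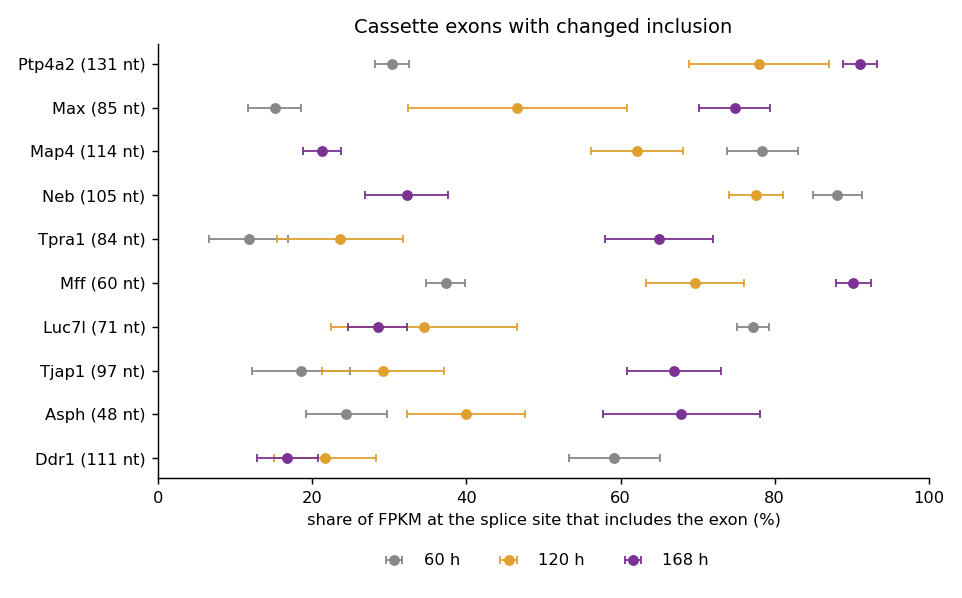
The x axis is the share of FPKM at the shared splice site that includes the exon, in percent, for the 10 cassette exons with the largest change among those whose 120 h share lay between the others. Points are the libraries at 60 h (grey), 120 h (orange) and 168 h (purple), and bars are the intervals of the shares. In each row the grey and purple points lie apart with bars that do not overlap, as the rule for a change requires.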

How the data were processed

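The deposited files list assembled transcripts with their exons. Each transcript line holds the authors' RPKM, a normalized value with confidence limits in the same column, called FPKM here because it counts fragments, and each line names Cufflinks per the file contents. The submitters' processing notes list TopHat 1.0.13 and Cufflinks 0.8.0 without saying what each did, with the build not given in the sources used here. From the limits, which lie 2 square roots of a fragment count from the value in genes with 1 transcript, the library sizes were computed, and low transcripts then came out as whole fragment counts, within 0.01, in 93.7% to 94.6% of cases. Intervals cover counting error and, in genes with several transcripts, the division of fragments between them.

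Of 137519 introns, 122775 were named by runs of intron, exon and intron lengths in GENCODE M21 and 5245 by their own length between named neighbours. For the latter, 0.319% of shifted lengths matched. Single-exon genes were left out. No strand marking is described in the labels' protocols, so fragments of genes that overlap on opposite strands cannot be told apart. For the FPKM through the introns, the FPKM of the transcripts that hold an intron was summed, and the median was taken across the introns of the gene. The union of exons, used as an alternative chosen after seeing the data for lists and single genes, counts a gene's fragments over its merged exons. Copies were sought as the percent of up to 200 sampled words of 50 bases found in transcripts of another gene.

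With 1 library a side no test was possible and calls follow the size rule in the text. Named genes were protein-coding genes called with at least 10 FPKM, the 15 largest log2 ratios each way, the 4 largest called members of each list, and the 5 highest genes assembled in 1 library alone each way. Other members named were chosen after their values were seen, and some genes that the rule names are not reported here. The comparison and the 24 lists were chosen with earlier results of these data known. The part of the size rule on the sum over transcripts and the splice-site rule were run on simulated fragment counts. The intron measure, its agreement with the sum and the assembly of transcripts were not simulated. Python 3.11.15, numpy 2.4.6 and pandas 2.3.3 were used.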

Additional observations from a re-analysis of the deposited data

How the results depend on the processing

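The count of risen genes, 397, was 858 by the sum of transcripts alone, and that of fallen genes, 365, was 568. Through the introns alone 576 genes fell, over the union of exons 732, and 553 with unassembled genes taken as 0. The union shared 262 risen and 329 fallen genes with the rule used. A 4-fold rule left 37 risen and 39 fallen. The other alternatives, which were a pseudocount of 0.1, no minimum or 5 FPKM, both scalings, common introns, multi-exon transcripts and leaving out genes with copies, kept both counts within 1.5 times. Dropping the minimum could not change the counts, since 2-fold on FPKM + 1 already requires 1 FPKM. The 512 genes with a changed splice-site choice became 316 at 10 FPKM, 853 at 20 points, 209 at 50 points and 130 with every choice assembled in both libraries. All 94 named ratios passed at a pseudocount of 0.1 and through the introns, which the rule that named them fixed in advance. Of the 94, 90 passed under the median-ratio scaling and 89 when totals were made equal. Over the union of exons 77 passed, and Sgcd (-0.14) and Rpl23 (-0.30) reversed. The cause was not tested. No paired analysis was possible because each time point has 1 library. No replicate could be left out for the same reason. Lower depth at 120 h limits the middle values.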
